A study of Mus musculus with 12 samples.

Results

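Neutrophil granule genes encode the proteins that neutrophils store in their granules, and 8 of them were followed here in dorsal root ganglia (DRG) and hind paw together with 2 genes of an abundant cytosolic neutrophil protein, 10 genes in all. They were chosen by name from the 22609 gene symbols listed for each library, with their counts in these libraries known: 4 genes of primary granules (Mpo, Elane, Prtn3 and Ctsg), 4 genes of secondary granules (Ngp, Camp, Ltf and Lcn2) and the 2 genes of calprotectin (S100a8 and S100a9). The choice used the levels in DRG beside hind paw, primary beside secondary granule genes, and the sex difference of Mpo in DRG. These differences are therefore described without a test.

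RNA of whole DRG and of hind paw tissue was sequenced from female and male C57BL/6J mice, giving 3 libraries per sex and tissue. All 4 groups were labelled as 8 to 14 weeks old and as given 20 µl of saline in the paw, with no other treatment or allele named. The study's methods instead describe naïve mice, with the females in estrus, at an upper age below that of the labels, and which account holds for these libraries was not settled here. Between 8988497 and 13327072 reads per DRG library and between 6866545 and 13470783 reads per hind paw library were counted on genes. The study's methods describe perfusion with buffer before dissection of the ganglia and a skin biopsy of the paw, and no sequencing batch is named for a library.

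Developing neutrophils fill their granules in sequence. Promyelocytes in the bone marrow make the primary, or azurophilic, granule proteins, later myelocytes make the secondary, or specific, granule proteins, and mature neutrophils in blood and tissue have largely stopped transcribing both. Calprotectin is a cytosolic calcium-binding complex that mature neutrophils and monocytes hold in large amounts.

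The labelled tissues were checked against their markers. The 10 sensory neuron genes summed to between 3815 and 4776 CPM (reads of a gene scaled to the reads on all genes of the library) in the DRG libraries and to between 10.2 and 17.7 CPM in hind paw. The 10 keratinocyte genes summed to between 33105 and 53007 CPM in hind paw and to between 25.1 and 72.0 CPM in DRG. Each tissue thus held the markers of its label. The 8 skeletal muscle genes summed to between 2619 and 11644 CPM in hind paw, although the methods describe a biopsy that spares muscle.

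A pair of libraries stood apart. Male DRG library 1 had a summed skeletal muscle level (8 genes) of 1689 CPM, against 92.6 to 474.3 CPM in the other DRG libraries. In male hind paw library 2, 13.6% of the listed reads were on genes and 55.5% were not unique, against 23.8% to 28.1% on genes in the other 11 libraries.

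The 250 bases before the start of the 4 primary granule genes are shown because these genes lay higher in female than male DRG in their means. All 10 genes were matched in the RefSeq promoter table, whose build GRCm38.p6 differs from the mm9 build of the counts. Capitals mark AGGAAGT, a core that PU.1 is known to bind, and AACGG, a core that Myb is known to bind, each searched on both strands (ACTTCCT and CCGTT on the other strand). The motifs were chosen after the promoters were seen. Mpo lies at chr11:87793534-87793783 (plus strand), Elane at chr10:79886062-79886311 (plus strand), Prtn3 at chr10:79879417-79879666 (plus strand) and Ctsg at chr14:56102575-56102824 (minus strand).
Mpo: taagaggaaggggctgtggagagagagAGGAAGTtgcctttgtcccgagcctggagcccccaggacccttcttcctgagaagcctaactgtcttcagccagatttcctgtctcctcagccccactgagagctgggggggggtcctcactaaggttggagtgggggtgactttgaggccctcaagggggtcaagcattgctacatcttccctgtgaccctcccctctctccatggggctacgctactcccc
Elane: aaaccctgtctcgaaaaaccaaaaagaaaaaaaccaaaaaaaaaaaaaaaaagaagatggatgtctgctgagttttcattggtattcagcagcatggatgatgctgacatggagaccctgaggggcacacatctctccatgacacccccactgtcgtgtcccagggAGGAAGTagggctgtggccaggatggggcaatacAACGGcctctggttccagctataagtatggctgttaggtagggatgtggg
Prtn3: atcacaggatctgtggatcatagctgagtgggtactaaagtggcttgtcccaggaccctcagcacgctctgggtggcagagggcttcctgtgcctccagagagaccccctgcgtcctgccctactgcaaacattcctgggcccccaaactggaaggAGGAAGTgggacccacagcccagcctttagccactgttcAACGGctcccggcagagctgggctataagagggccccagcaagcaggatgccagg
Ctsg: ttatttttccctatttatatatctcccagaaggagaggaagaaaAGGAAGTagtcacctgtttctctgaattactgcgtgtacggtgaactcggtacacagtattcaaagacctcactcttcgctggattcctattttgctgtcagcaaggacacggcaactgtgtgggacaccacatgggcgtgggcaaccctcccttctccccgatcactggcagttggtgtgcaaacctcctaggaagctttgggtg

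AGGAAGT occurred in all 4 primary granule promoters, in none of the 4 secondary granule promoters and in 1 of the 2 calprotectin promoters (S100a8). Of 32851 promoters of the same length, 7.69% held it. AACGG occurred in Elane, at bases -50 to -46 from the start, and in Prtn3, at bases -55 to -51, and 14.5% of all promoters held it. These matches are descriptions of letters, not of binding.

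A pair of secondary granule promoters is shown for contrast, with capitals marking TTNNGNAA, a pattern of C/EBP factors (TTNCNNAA on the other strand). Ngp lies at chr9:110419558-110419807 (plus strand) and Ltf at chr9:111019042-111019291 (plus strand).
Ngp: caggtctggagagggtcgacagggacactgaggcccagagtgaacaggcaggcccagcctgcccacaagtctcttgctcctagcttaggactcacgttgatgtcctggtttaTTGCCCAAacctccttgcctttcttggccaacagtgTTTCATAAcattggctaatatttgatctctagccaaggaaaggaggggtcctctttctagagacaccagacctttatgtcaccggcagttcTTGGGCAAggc
Ltf: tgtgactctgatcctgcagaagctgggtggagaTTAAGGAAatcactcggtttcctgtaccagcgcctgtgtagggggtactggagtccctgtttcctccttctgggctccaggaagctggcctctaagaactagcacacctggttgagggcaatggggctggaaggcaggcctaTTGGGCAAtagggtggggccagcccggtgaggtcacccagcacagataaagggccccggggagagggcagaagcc

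TTNNGNAA occurred in 3 of the 4 secondary granule promoters (Ngp, Ltf and Lcn2), in both calprotectin promoters and in none of the 4 primary granule promoters. It was the commonest of the 3 motifs, held by 36.8% of all promoters.

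**Figure D1:**
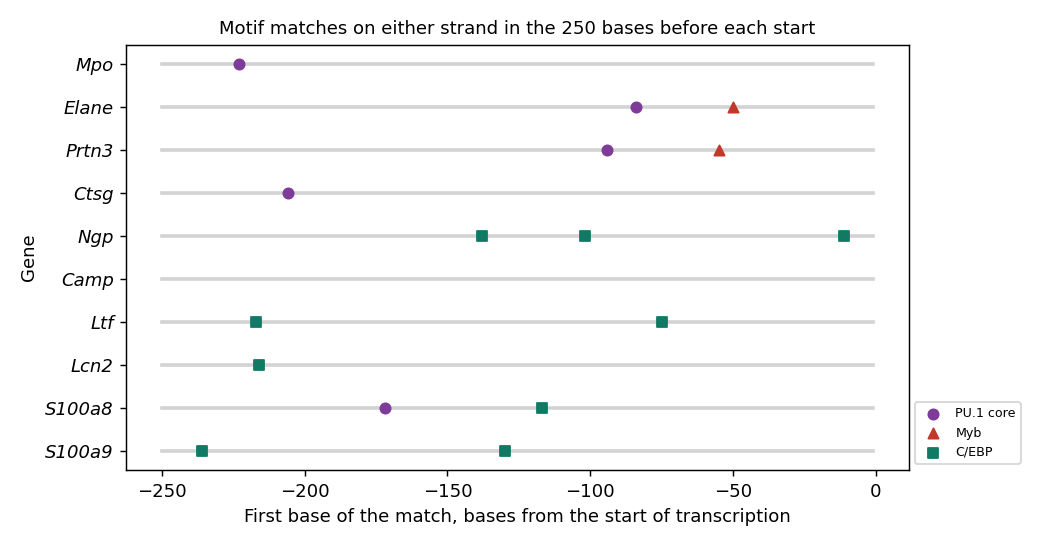
Positions of the motif matches in the 250 bases before the start of each of the 10 genes, with the x axis in bases from the start, 1 grey line per gene and 1 symbol per motif. PU.1 cores lie on the 4 primary granule genes and S100a8, and C/EBP patterns on secondary granule and calprotectin genes, with no match in Camp.

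In the mm9 annotation several of the genes were neighbours. Prtn3 (chr10:79337221-79345919) and Elane (chr10:79349057-79350961) lay side by side on the plus strand, Camp, Ngp and Ltf lay on chromosome 9, and S100a8 and S100a9 on chromosome 3. Mpo lay at chr11:87607083-87617915 and Ctsg at chr14:56718718-56721411.

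Mpo, the myeloperoxidase that makes hypochlorous acid, had 7.28, 7.38 and 8.41 CPM in the female DRG libraries and 1.73, 2.67 and 3.73 CPM in the male DRG libraries. All 3 female libraries lay above all 3 male libraries. The log2 fold change of females over males was 1.5 (SE 0.26, n = 3 per sex) and ran from 1.23 to 1.80 with any single library removed. In bulk tissue, fewer cells of a type and less RNA per cell cannot be told apart.

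Elane, neutrophil elastase, had 1.55, 1.72 and 1.47 CPM in female DRG and 0.525, 0.556 and 0.934 CPM in male DRG. These were 15 to 21 reads in females and 5 to 9 in males, again without overlap. The gene passed the filter of 10 reads in 3 libraries only through the females, so a difference was built into its passing. Its log2 fold change was 1.22 (SE 0.34).

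Prtn3, proteinase 3, had 1.46, 0.902 and 0.978 CPM in female DRG and 0.225, 0.445 and 1.14 CPM in male DRG, and the sexes overlapped through male library 3. Its log2 fold change was 0.90 (SE 0.54), and 1.73 without that library. Ctsg, cathepsin G, was too low for the filter, with 25 reads over the 3 female and 10 reads over the 3 male DRG libraries. Its DRG values ran from 0.111 to 0.984 CPM, and male library 3 lay above female library 1.

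Ngp, a neutrophilic granule protein of the cystatin fold, had 45.9, 46.6 and 36.3 CPM in female DRG and 15.2, 24.8 and 33.3 CPM in male DRG. The sexes did not overlap, though male library 3 came close to female library 3. The log2 fold change was 0.80 (SE 0.24).

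Ltf, the iron-binding lactoferrin, had 32.6, 36.1 and 28.2 CPM in female DRG and 13.3, 23.5 and 26.3 CPM in male DRG, with a log2 fold change of 0.61 (SE 0.22). Camp, the precursor of the cathelicidin peptide, had 8.25, 10.6 and 5.96 CPM in females and 4.28, 6.01 and 8.09 CPM in males (log2 fold change 0.43, SE 0.27). The sexes did not overlap for Ltf and overlapped for Camp.

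Lcn2, a lipocalin that captures bacterial siderophores and is also made outside neutrophils, had 12.1, 17.2 and 14.1 CPM in female DRG and 5.48, 7.12 and 10.1 CPM in male DRG. The sexes did not overlap, and the log2 fold change was 0.93 (SE 0.22), the highest of the secondary granule genes.

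S100a8 had 40.9, 39.9 and 35.8 CPM in female DRG and 14.9, 37.9 and 42.0 CPM in male DRG. S100a9, its partner in calprotectin, had 60.6, 50.8 and 48.4 CPM in females and 22.0, 48.4 and 51.8 CPM in males. Male library 1 was low for both genes, and the other 2 male libraries lay close to or within the female range. The log2 fold changes were 0.29 (SE 0.31) and 0.37 (SE 0.26), and without male library 1 they were -0.067 and 0.062.

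**Figure D2:**
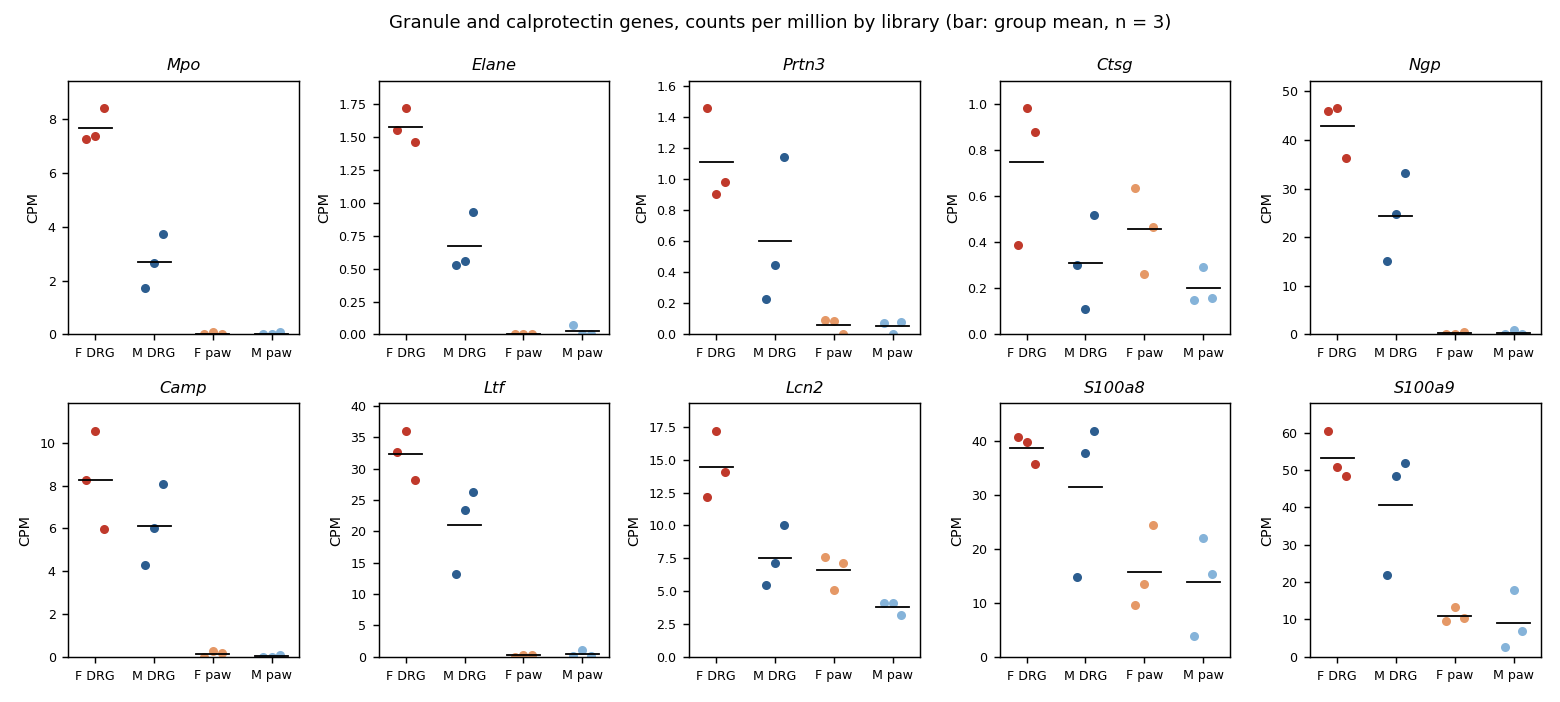
CPM of each of the 10 genes (y axis) in the 4 groups (x axis), with 1 point per library and a bar at the mean of 3. Mpo, Elane, Ngp, Ltf and Lcn2 separate female from male DRG, and S100a8 and S100a9 do not.

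Of the 9 genes that passed the filter in DRG, 5 had every female library above every male library (Mpo, Elane, Ngp, Ltf and Lcn2). Of the 14456 genes tested in DRG, 8.47% had females wholly above males, and nothing is read from the comparison because the choice of genes used this contrast. Without male library 1, which stood apart by its muscle genes, the log2 fold changes of the primary granule genes were 1.23 for Mpo, 1.04 for Elane and 0.43 for Prtn3. Those of the secondary granule genes were then 0.54 for Ngp, 0.35 for Ltf, 0.21 for Camp and 0.73 for Lcn2. All 7 were smaller than with that library, and the part of muscle tissue in these levels was not tested. Over all tested genes, 0.0484% passed an adjusted p-value of 0.05 in either direction, that is 7 genes.

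**Figure D3:**
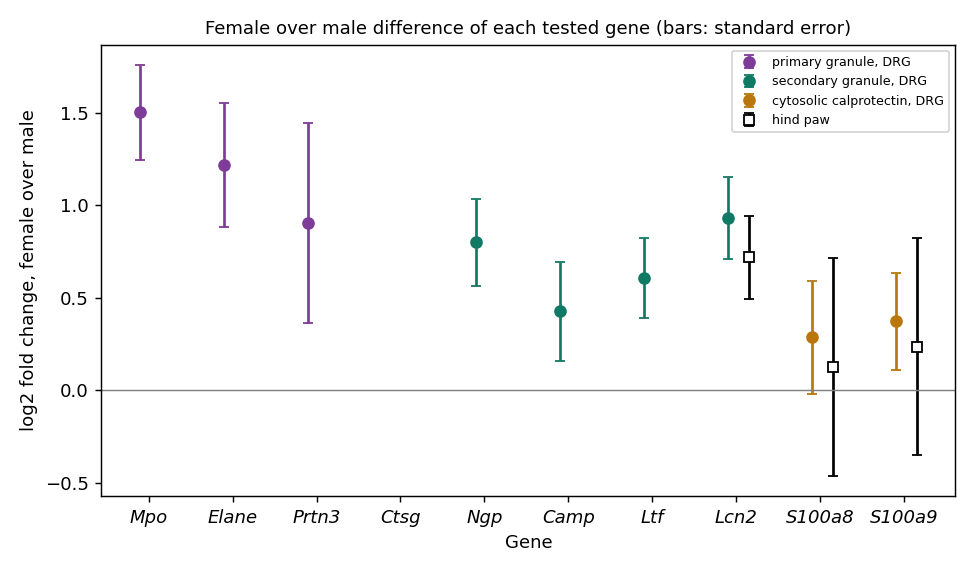
Log2 fold change of females over males (y axis, bars are standard errors) for each gene that passed the filter in DRG (filled) or hind paw (open). Values run from 1.5 for Mpo to 0.29 for S100a8 in DRG, and Ctsg has no value.

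Summed by granule class, the primary granule genes had 10.7, 10.98 and 11.7 CPM in female DRG and 2.78, 3.78 and 6.33 CPM in male DRG. The secondary granule genes had 98.9, 110.4 and 84.5 CPM in females and 38.2, 61.4 and 77.8 CPM in males. Calprotectin had 101.4, 90.7 and 84.2 CPM in females and 36.8, 86.3 and 93.8 CPM in males. Female means exceeded male means 2.59-fold, 1.66-fold and 1.27-fold in the same order, and 2.20-fold, 1.41-fold and 1.02-fold without male library 1. The sexes overlapped only for calprotectin among these 3 sums.

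The primary share of all primary and secondary granule reads was 9.74%, 9.05% and 12.2% in female DRG and 6.78%, 5.80% and 7.52% in male DRG. The 3 female shares lay above the 3 male shares. Their Wilson 95% intervals were 8.15% to 11.6%, 7.69% to 10.6% and 10.3% to 14.4% in female DRG libraries 1, 2 and 3. In male DRG libraries 1, 2 and 3 they were 4.96% to 9.20%, 4.18% to 8.00% and 5.90% to 9.54%. These intervals cover counting error only, not the spread between libraries. No comparison of the sexes is drawn from them, because the choice of genes used the sex difference of Mpo in DRG. Mpo alone gave 59.0% to 71.7% of the primary granule reads in the DRG libraries.

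**Figure D4:**
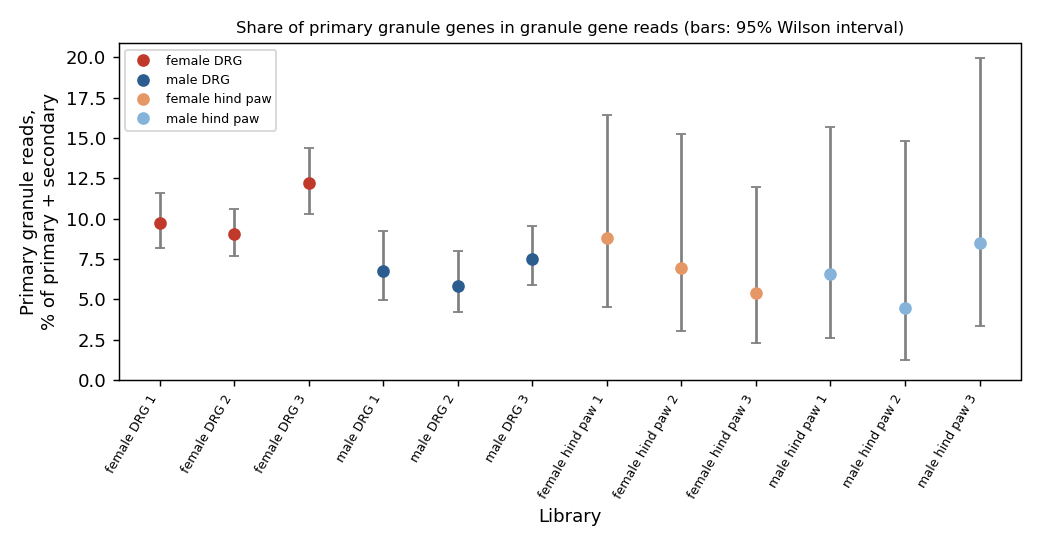
Reads of the 4 primary granule genes as a percent of all primary and secondary granule reads (y axis) in each library (x axis), with 95% Wilson intervals. Female DRG libraries lie between 9.05% and 12.2% and male DRG libraries between 5.80% and 7.52%, and hind paw intervals are wide because few reads were counted.

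Levels of different genes were compared as RPKM, which is CPM divided by exon length in kilobases. Over the 6 DRG libraries S100a9 (90.0 ± 24.99, SD) and S100a8 (89.9 ± 26.1) were the highest, followed by Ngp (27.7 ± 10.02), Camp (11.97 ± 3.70), Ltf (9.72 ± 2.90) and Lcn2 (4.78 ± 1.90). The primary granule genes were lower, with Mpo at 1.52 ± 0.826 RPKM, Elane at 1.22 ± 0.570, Ctsg at 0.529 ± 0.339 and Prtn3 at 0.495 ± 0.261. Neighbours in this order whose means differed by less than their SDs were S100a9 and S100a8, Camp and Ltf, Mpo and Elane, and Ctsg and Prtn3. Within the sexes the order of a pair of these changed: S100a9 stood above S100a8 in females (102.0 and 99.1 RPKM) and below it in males (78.0 and 80.6), and Ctsg stood above Prtn3 in females (0.749 and 0.642) and below it in males (0.309 and 0.349).

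In hind paw, primary granule reads were near 0. Mpo had 2 reads over the 6 hind paw libraries and 334 over the 6 DRG libraries, a ratio of CPM of 170 (exact 95% counting interval 46.7 to 1410). Elane had 1 read against 73, a ratio of 74.3 (12.9 to 2975), and Prtn3 had 4 against 54, a ratio of 13.7 (5.07 to 52.3). Ctsg was the exception, with 21 hind paw reads against 35 in DRG and a ratio of 1.70 (0.961 to 3.07).

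Ctsg is also known from connective tissue mast cells. The 7 mast cell genes summed to between 81.8 and 157.7 CPM in hind paw and between 111.9 and 130.9 CPM in DRG. Kit made up 90.5% of this sum in DRG and 44.9% in hind paw. Of the 5 tested genes of the list, Kit was higher in DRG at an adjusted p below 0.05. The other 4, Cpa3, Cma1, Mcpt4 and Tpsb2, were higher in hind paw at the same threshold. Over all tested genes, 43.3% were higher in DRG and 42.5% higher in hind paw. Cma1 had 1.58 to 2.13 CPM in DRG and 7.57 to 23.2 CPM in hind paw. No listed mast cell gene was at 0 in every library of a tissue. The part of mast cells in the Ctsg reads was not tested.

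Among secondary granule genes, Ngp had 16 hind paw reads against 2158 in DRG, a ratio of 137 (84.4 to 241). Ltf had 19 against 1706, a ratio of 91.4 (58.4 to 152), and Camp 6 against 464, a ratio of 78.7 (35.9 to 216). Lcn2 was different: its 340 hind paw reads against 713 gave a ratio of 2.13 (1.87 to 2.44), and it held 65.1% to 100% of the secondary granule reads in the hind paw libraries. The secondary granule reads of the paw were thus mainly Lcn2.

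S100a8 had 917 hind paw reads against 2218 in DRG, a ratio of 2.46 (2.28 to 2.66). S100a9 had 609 against 2966, a ratio of 4.96 (4.54 to 5.42). These intervals cover counting error only. With any single library removed, the log2 fold change of DRG over hind paw ran from 0.97 to 1.47 for S100a8, from 1.96 to 2.65 for S100a9 and from 0.94 to 1.17 for Lcn2. By RPKM, S100a8 (37.8 ± 19.6) and S100a9 (19.3 ± 10.1) were the highest of the 10 genes in hind paw, and Lcn2 (2.26 ± 0.772) came next. S100a9 was higher in every DRG library than in every hind paw library, and S100a8 and Lcn2 were not.

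Of the 10 genes 7 passed the filter over the 12 libraries, and Mpo, Ngp, Camp and Ltf passed it only through the DRG libraries, so that they had to be higher there. Of the 7, 5 had every DRG library above every hind paw library, against 38.1% of 15015 tested genes. Over all tested genes, 43.3% were higher in DRG and 42.5% higher in hind paw at an adjusted p below 0.05. Since the choice of genes used this contrast, these shares are printed as background.

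The sex difference in hind paw was not used to choose the genes, and 3 of the 10 passed the filter there. Lcn2 had 7.58, 5.08 and 7.12 CPM in female hind paw and 4.08, 4.08 and 3.21 CPM in male hind paw. All females lay above all males, as for 15.5% of the 14316 genes tested in hind paw, and the log2 fold change of 0.72 (SE 0.22) had an adjusted p of 0.343 by the edgeR quasi-likelihood test, Benjamini-Hochberg adjusted. Lcn2 did not pass the threshold, nor did it without male hind paw library 2, where its log2 fold change was 0.80 (SE 0.25).

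S100a8 had 9.58, 13.5 and 24.4 CPM in female and 3.93, 22.1 and 15.4 CPM in male hind paw, and S100a9 had 9.49, 13.2 and 10.3 CPM in female and 2.52, 17.9 and 6.98 CPM in male hind paw. The sexes overlapped for both, with log2 fold changes of 0.13 (SE 0.59) and 0.24 (SE 0.59) and adjusted p of 0.975 and 0.948 by the edgeR quasi-likelihood test, Benjamini-Hochberg adjusted. Without male hind paw library 2 their log2 fold changes were 0.66 (SE 0.61) and 1.16 (SE 0.40), and without male hind paw library 1 they were -0.35 (SE 0.38) and -0.25 (SE 0.38). Of the 3 genes 0 passed an adjusted p of 0.05 by edgeR and 0 by DESeq2, and 1 (Lcn2) had an unadjusted p below 0.05 with females higher. Over all genes tested in hind paw, 0.154% passed by edgeR, that is 22 genes, 1.45% passed by DESeq2, and 4.25% had an unadjusted p below 0.05 with females higher and 5.49% with males higher.

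Other neutrophil genes were taken from 6 lists, of which 47 of 48 genes were found in the files. In DRG, 31 were tested, and 26 of them had a positive log2 fold change of females over males. Their median was 0.45, against 0.00 over all tested genes. By edgeR's quasi-likelihood test 0 passed an adjusted p of 0.05 in either direction, 0 did by DESeq2, and 9 had an unadjusted p below 0.05 with females higher, where 3.36% of all tested genes did. The lists were chosen with earlier results of these data known, so nothing is read from this excess. Of the 10 monocyte and macrophage genes, all tested in DRG, 9 had a positive log2 fold change there, with a median of 0.57. By edgeR's test 0 of these 10 passed an adjusted p of 0.05, and 5 had an unadjusted p below 0.05 with females higher. The summed level of this list was highest in female DRG library 1, at 305.8 CPM against 121.9 to 182.2 CPM in the other DRG libraries. The part of these cells in the neutrophil gene differences was not tested.

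Of the 5 further primary granule genes, 3 were tested in DRG. Ms4a3, expressed at the promyelocyte stage, had 2.23, 3.28 and 2.74 CPM in female DRG and 2.63, 2.34 and 3.11 CPM in male DRG, with a log2 fold change of 0.01 (SE 0.24) and full overlap of the sexes. The more widely expressed Serpinb1a and Ctsc had log2 fold changes of -0.16 (SE 0.08) and 0.45 (SE 0.28), and that of Ctsc was -0.023 (SE 0.11) without female DRG library 1 and 0.39 to 0.66 without any other DRG library. Prss57 was too low for the filter, with 11 reads over the 3 female and 16 over the 3 male DRG libraries. Bpi had 0 reads in all 12 libraries.

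Of the other secondary and tertiary granule genes, 11 of 12 were tested in DRG and 9 had a positive log2 fold change. The 3 most abundant by RPKM were Lyz2 with 0.41 (SE 0.20), Mmp25 with -0.13 (SE 0.10) and Chi3l3 with 0.71 (SE 0.34). The granulocyte transcription factors Runx1, Cebpd and Cebpa had log2 fold changes of -0.05 (SE 0.08), 0.53 (SE 0.19) and 0.44 (SE 0.27). Runx1 made up 80.9% of the summed level of its list in DRG. It was highest in male DRG library 1, at 169.6 CPM against 134.7 to 158.4 CPM in the other DRG libraries. Which cells expressed Runx1 was not tested. Without male DRG library 1 the log2 fold changes were 0.22 (SE 0.16) for Lyz2, -0.07 (SE 0.11) for Mmp25, 0.33 (SE 0.18) for Chi3l3, 0.03 (SE 0.08) for Runx1 and 0.33 (SE 0.15) for Cebpd. Without female DRG library 1 they were 0.24 (SE 0.18) for Lyz2, -0.05 (SE 0.09) for Mmp25 and 0.016 (SE 0.15) for Cebpa. Chi3l3 rose to 1.115 (SE 0.33) without male DRG library 3, and Mmp25 lay at -0.19 (SE 0.10) and Runx1 at -0.14 (SE 0.06) without male DRG library 2. None of these 6 genes passed an adjusted p of 0.05.

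Markers of mature neutrophils had a different distribution between tissues. The 11 listed genes summed to between 9.75 and 27.6 CPM in DRG and between 34.4 and 84.9 CPM in hind paw, where the interleukin 1 decoy receptor Il1r2 made up 57.2% of the sum. At an adjusted p below 0.05, Retnlg was higher in DRG, and Il1r2, Clec4d, Cxcr2 and Clec4e were higher in hind paw. Retnlg had a log2 fold change of DRG over hind paw of 3.71 (SE 0.41) and Il1r2 of -5.70 (SE 0.22). Retnlg reached 10 reads in 6 DRG and 2 hind paw libraries, Il1r2 in 1 DRG and 6 hind paw libraries, Clec4d in 2 and 6 and Clec4e in 1 and 5. Each of these 4 genes passed the filter wholly or mainly through the tissue where it was higher, so part of its difference was built into its passing.

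Over all 6 lists, 9 of 36 tested genes were higher in DRG and 22 higher in hind paw, against 43.3% and 42.5% of all tested genes. The genes higher in DRG included the granule genes Ms4a3 (log2 fold change 6.94, SE 0.45), Mmp25 (5.41, SE 0.15), Mmp8 (4.11, SE 0.44) and Cd177 (3.02, SE 0.37). Mmp25 was highest in male DRG library 1, at 53.0 CPM against 41.5 to 51.4 CPM in the other DRG libraries. That library had the lowest primary granule, secondary granule and calprotectin sums in DRG. Which cells expressed Mmp25 was not tested. Ms4a3 and Mmp8 passed the filter only through DRG, with at most 1 and 8 reads in a hind paw library, so their excess in DRG was built into their passing. Cd177 and Mmp25 reached 10 reads in 2 and 4 hind paw libraries and also passed through DRG. Cxcl1 and Cxcl2, among those higher in hind paw, passed only through hind paw. Those higher in hind paw included the transcription factors Cebpa (-4.78, SE 0.18) and Cebpb (-3.95, SE 0.26), which other paw cells also express, and 5 of the 6 NADPH oxidase genes.

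In hind paw, 35 of the further neutrophil genes were tested between the sexes, and 0 passed an adjusted p of 0.05 by edgeR and 5 by DESeq2, which called 1.45% of all tested genes. Of these 35, 13 had an unadjusted p below 0.05 with females higher, against 4.25% of all tested genes, and 4 with males higher, against 5.49%. Cxcr2 ligands made up 4 of the 13, and the study had already named Cxcl1, Cxcl2 and Cxcl5 as higher in female hind paw. All lists were chosen with earlier results of these data known, so nothing is read from this excess. Il1r2 had 39.2, 47.8 and 37.8 CPM in females and 23.9, 19.8 and 23.9 CPM in males, and its log2 fold change of 0.79 (SE 0.11) had an adjusted p of 0.0623 by the edgeR quasi-likelihood test, Benjamini-Hochberg adjusted. The ligands of Cxcr2, which draw neutrophils into tissue, included Cxcl1, with 14.8, 14.3 and 15.3 CPM in females and 1.93, 8.01 and 7.78 CPM in males (log2 fold change 1.27, SE 0.44).

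Whether the sex difference itself differed between tissues was tested over all genes by the interaction of sex and tissue, and 0.0133% of 15015 genes passed (2 genes). Among the 36 further neutrophil genes tested, 0 passed by edgeR and 3 by DESeq2, which called 0.246% of all tested genes. An unadjusted p below 0.05 was found for 10 of the 36, against 7.94% of all tested genes. The 10 did not share a direction: 5 had a positive and 5 a negative interaction. The choice of lists with earlier results known applies here too, so nothing is read from this count. Of all tested genes, 0.819% had the sexes fully separated in opposite directions in the 2 tissues, and none of the 7 granule and calprotectin genes tested did.

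The genes whose profile over the 6 DRG libraries was nearest to the summed primary granule genes were Myb, Cd177, Cenpf, Pkhd1l1, Mfsd2b, Rrm2, Mki67 and Spna1, among 13424 genes ranked by the root mean square difference of centred log2 CPM. Their distances ran from 0.24 to 0.35, against a root mean square of 0.80 for the primary sum itself. Myb had 3.88, 4.18 and 4.99 CPM in female DRG and 1.28, 2.11 and 3.42 CPM in male DRG. The sexes did not overlap, but Myb was picked for its closeness to a sum whose sexes do not overlap. Its separation was therefore largely built into the choice. Nearest to the secondary sum were Sla, F630028O10Rik, Pkhd1l1, Igfbp2, Rab44, 1500015A07Rik, Cebpd and Acap1, with distances from 0.13 to 0.17.

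Markers of other blood-forming cells were also found in DRG. The 10 erythroid precursor genes summed to 92.6, 92.2 and 65.5 CPM in female DRG and 20.9, 52.2 and 75.7 CPM in male DRG, led by Slc4a1 (41.0% of the sum), with none at 0 throughout DRG. The 11 B-lymphocyte precursor genes summed to 9.53 ± 1.53 CPM in females and to 2.85, 9.46 and 4.46 CPM in males, led by Rag1 (29.2%), with Vpreb2 at 0. The 7 eosinophil genes summed to 9.02, 9.67 and 11.7 CPM in females and 3.30, 11.01 and 9.23 CPM in males, led by Prg2 (59.4%).

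Male DRG library 1 was the lowest in all 3 of these lists and in each granule class. Hind paw sums were 4.03 to 8.94 CPM for the erythroid list and 0.562 to 1.78 CPM for the B-lymphocyte list. The part of these cell types in the granule gene levels was not tested.

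The 10 bone cell genes summed to between 415.1 and 887.3 CPM in DRG, of which Col1a1 was 96.6%, and to between 1266 and 4170 CPM in hind paw, where Col1a1 was 99.7%. Of the 4 tested between tissues, Ibsp and Alpl were higher in DRG and Col1a1 in hind paw at an adjusted p below 0.05. Ibsp had at most 3 reads in a hind paw library and passed the filter only through DRG, so its excess there was built into its passing. The bone matrix gene Ibsp, in the same list, had 6.60, 5.41 and 9.39 CPM in female DRG and 4.73, 6.45 and 5.60 CPM in male DRG, and at most 0.281 CPM in a hind paw library. Its sexes overlapped in DRG.

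The bone cell sum itself did not overlap between the sexes in DRG, with 887.3, 565.2 and 623.4 CPM in females and 415.1, 529.1 and 436.1 CPM in males. Of the 5 bone cell genes tested there, Col1a1 and Dmp1 had every female library above every male library, against the 8.47% of all genes tested in DRG. Col1a1 had 864.6, 546.5 and 597.8 CPM in females and 396.4, 512.3 and 419.7 CPM in males. Dmp1 had 1.55, 1.48 and 2.84 CPM in females and 0.975, 0.890 and 0.311 CPM in males, and reached 10 reads in 1 of the male libraries. In hind paw the males had the higher bone cell sums, as a mean of 3245 against 1490 CPM. Col1a1 made up 96.6% of the sum in DRG and 99.7% in hind paw. Both sex comparisons of the sum are thus mainly of Col1a1 and say little about the other genes of the list. None of the 10 bone cell genes was at 0 throughout DRG, and their part in the granule gene levels was not tested.

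The 10 monocyte and macrophage genes summed to 305.8, 182.2 and 156.8 CPM in female DRG and 121.9, 167.9 and 148.4 CPM in male DRG, led by Mrc1 (26.3%), with none at 0. In hind paw their sum was 374.7 to 743.1 CPM. Megakaryocyte and platelet genes (7) summed to between 10.3 and 17.6 CPM in DRG and between 45.6 and 72.4 CPM in hind paw, and the 3 tested (Pf4, Itga2b and Gp1bb) were higher in hind paw at an adjusted p below 0.05. The part of these cells in the S100a8 and S100a9 levels was not tested.

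**Figure D5:**
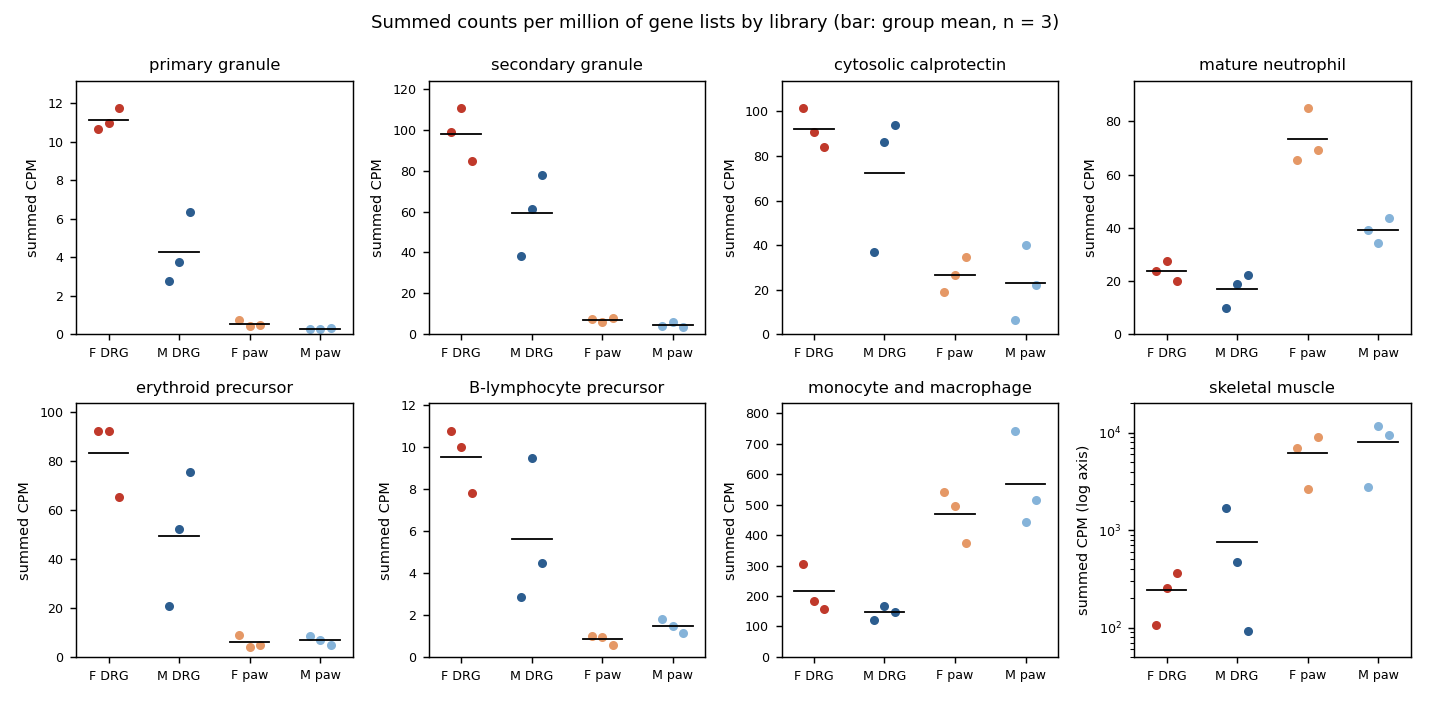
Summed CPM of 8 gene lists (y axis, logarithmic for skeletal muscle) in the 4 groups (x axis), with 1 point per library and a bar at the mean of 3. Granule, erythroid and B-lymphocyte precursor lists are higher in DRG, and mature neutrophil genes are higher in hind paw.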

How the data were processed

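The authors aligned reads to mm9 with TopHat2 and counted them with HTSeq, and each deposited file lists the resulting whole-number count of each gene, not normalized. The labels name ribosomal RNA depletion and paired reads of 100 bp, whereas oligo-dT priming and single reads are given for tissue in the methods. The 10 genes and all lists were chosen with earlier results of these data known. The 5 categories of reads not on a gene were left out. CPM used reads on genes, and RPKM used exon lengths of the GENCODE vM1 annotation of mm9, matched for 21657 of 22609 symbols. Comparisons were run in R 4.3.3 with edgeR 4.0.16 (quasi-likelihood F-test, RLE factors, Benjamini-Hochberg adjustment) on genes reaching 10 counts in 3 or more libraries of a tissue, or 6 of 12. DESeq2 1.42.0 was an alternative. The tests were tried on simulated data first. Nothing says that libraries came from separate mice, and p-values then measure only the spread between libraries. Named genes were the 10 genes, up to 6 genes of each list with an adjusted p below 0.05 or its 3 most abundant by RPKM, and the 8 nearest profiles. Genes outside this rule, such as Bpi, Prss57, Ibsp, Col1a1 and Dmp1, were named after their values were seen. Spi1 is listed as Sfpi1. A result that the rule for named genes would include is not reported here. Alternatives were TMM, DESeq2, no count filter, a replicate block, a single 12-library fit and leaving out each library.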

Additional observations from a re-analysis of the deposited data

Results flagged for a closer look

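For 3 of the 109 listed genes tested over 12 libraries (2.75%), against 0.819% of all tested genes, every female library lay on one side of every male library in DRG and on the opposite side in hind paw. The log2 difference of the sex effects, DRG minus hind paw, was 1.14 for Itgam (adjusted p 0.256), 1.77 for Col1a1 (adjusted p 0.138) and -2.89 for Fabp7 (adjusted p 0.363) by the edgeR quasi-likelihood test, Benjamini-Hochberg adjusted, so none passed the interaction test. By DESeq2, Itgam and Col1a1 passed it. Fabp7 rests on 9 reads in hind paw. None of the 10 granule and calprotectin genes met this pattern.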

How the results depend on the processing

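Genes called numbered 7 between the sexes in DRG, 22 in hind paw, 12886 between tissues and 2 for the interaction. DESeq2 gave 15, 208 and 37 for the DRG, hind paw and interaction counts. Without a count filter hind paw gave 40 and the interaction 4, and a single 12-library fit gave 85 in hind paw. Replicate numbers did not pair the libraries (correlations of deviations between -0.36 and 0.27), and the fit with a replicate block gave 8 in hind paw and 1 for the interaction. Leaving out 1 library gave 1 to 6 in DRG, 1 to 8 in hind paw, 11832 to 12315 between tissues and 0 to 6 for the interaction. The causes were not tested.

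The log2 ratio of female over male DRG sums lay between 1.14 and 1.76 for primary, 0.49 and 0.98 for secondary and 0.03 and 0.58 for calprotectin genes without 1 library. The calprotectin alternatives, and those for the further neutrophil genes, were chosen after seeing the data. Further neutrophil genes higher in DRG numbered 7 to 10, and in hind paw 19 to 22, without 1 library, and 13 and 25 without a count filter.

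Without 1 library the log2 sex difference ran from -0.067 to 0.55 for S100a8 in DRG, and in hind paw from -0.35 to 0.66 for S100a8 and -0.25 to 1.16 for S100a9. The interaction ran from -0.35 to 3.39 for Mpo and -1.52 to 2.24 for Ngp without 1 hind paw library. It ran from -0.35 to 1.78 for Ltf and -3.38 to -0.84 for Camp. With all libraries it was 1.55, 0.90, 1.16 and -1.48 in the same order. These genes did not pass the filter without a DRG library. Without any 1 of the 12 libraries the interaction ran from -0.39 to 0.62 for S100a8 and -0.81 to 0.58 for S100a9. For S100a9 it was -0.070 with a replicate block.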
